A study of Mus musculus with 12 samples.

Results

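The interferon-inducible GTPase genes followed here across mouse brain gliomas number 6: Gbp2 and Gbp3 of the guanylate-binding protein (GBP) family, and Igtp, Irgm1, Irgm2 and Iigp1 of the immunity-related GTPase (IRG) family. Every array probe annotated to 1 of these 6 symbols was taken, which gave 14 probes of the 45135 on the array. Of these, 11 passed the detection filter that left 28002 probes in all. The 6 genes stand among 19031 genes named on the array, and all 6 were among the 14155 genes tested.

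Illumina bead arrays gave the expression of gliomas from 12 C57BL/6 mice, 1 array per animal, 6 with Tlx deleted and 6 with Tlx intact. Tlx is the older name of Nr2e1, an orphan nuclear receptor of neural stem cells. All animals came from a Nestin-CreERT2;Tlx flox/flox;Nestin-Tva line in which gliomas had been started. Nestin-Tva gives Nestin-expressing cells the receptor for an avian virus, and what started the gliomas is not stated in the labels. Tamoxifen was injected into the abdomen after 2.5 weeks. Littermates that carried the tamoxifen-activated Cre form the Tlx knockout group, and littermates without Cre form the Tlx intact group, so both groups carry the floxed allele and the knockout group alone carries Cre. The Nestin promoter drives Cre in neural progenitor cells, so the immune cells of the tissue are not its usual targets. Animal titles number the CreERT transgene differently in each animal, and the labels give no meaning for this. Tissue was taken at severe neurological symptoms, at 48 to 79 days of age in the knockout group (mean 62.2 ± 10.1 days, SD, n = 6) and 38 to 51 days in the intact group (mean 44.8 ± 5.08 days, SD, n = 6). The knockout animals were 17.3 days older on average (exact permutation test, two-sided, p = 0.00649), and age at collection therefore differs between the groups in each comparison of expression.

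GBPs and IRGs are cell-autonomous defence proteins. Interferon-gamma binds its receptor and activates the kinases Jak1 and Jak2, and the signal reaches GAS elements in target promoters. Interferon-stimulated response elements (ISREs) are bound by complexes that hold Stat2 and Irf9, or by Irf1. In mouse cells infected with Toxoplasma, the effector Iigp1 (Irga6) loads onto the parasite's vacuole, whereas Irgm1, Irgm2 and Igtp (Irgm3) are regulators that sit on the cell's own membranes and hold the effectors in check. Mouse Gbp2 joins the attack on such vacuoles and is anchored to membranes by a lipid group. In the brain, microglia, astrocytes and endothelial cells are among the cell types that can respond to interferon-gamma.

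The promoters of these genes are shown because their interferon-response letters lie within 100 bases of the start site in each of the 5 genes printed. The sequences are RefSeq's (GRCm38.p6), bases -100 to -1 before the annotated start, on the gene's own strand, 5′ to 3′. Capitals mark an ISRE core (GAAA, any 2 bases and GAAA again, or on the other strand TTTC, any 2 bases and TTTC) or a GAS core (TTC, any 3 bases and GAA, the same on both strands).
Gbp2, chr3:142620563-142620662, plus strand: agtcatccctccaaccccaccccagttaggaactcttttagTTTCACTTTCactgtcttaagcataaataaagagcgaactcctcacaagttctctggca
Gbp3, chr3:142559944-142560043, plus strand: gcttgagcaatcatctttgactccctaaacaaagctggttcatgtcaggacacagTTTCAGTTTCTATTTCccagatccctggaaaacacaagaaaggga
Igtp, chr11:58199456-58199555, plus strand: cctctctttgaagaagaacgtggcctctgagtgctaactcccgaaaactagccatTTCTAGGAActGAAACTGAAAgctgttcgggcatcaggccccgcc
Irgm1, chr11:48871421-48871520, minus strand: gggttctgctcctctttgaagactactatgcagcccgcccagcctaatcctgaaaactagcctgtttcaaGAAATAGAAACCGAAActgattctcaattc
Irgm2, chr11:58214877-58214976, plus strand: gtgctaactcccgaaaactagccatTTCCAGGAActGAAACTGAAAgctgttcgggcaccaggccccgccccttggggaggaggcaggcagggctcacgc

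An ISRE core was present in all 5 promoters, against 3.44% of 32851 RefSeq mouse promoters of the same 300-base window (250 bases before to 50 after the start). Gbp3 and Irgm1 each held 2 ISRE cores that overlap, at -45 and -39 in Gbp3 and at -30 and -24 in Irgm1, each position being the core's first base before the start. The single core of Gbp2 began at -59. Igtp and Irgm2 alone of the 5 also held a GAS core, which 8.3% of the promoters held, and 0.454% held both kinds. In Igtp the GAS core began at -45 and the ISRE core at -34, and in Irgm2 they began at -75 and -64. These adjacent genes on chromosome 11 shared an unbroken run of 61 bases, which began after the ISRE core and held neither core. No other pair among the 5 shared a run over 11 bases. A second annotated Gbp3 window held neither core. Such letters describe a sequence and are not evidence of binding. The promoter of Iigp1 was not used here.

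**Figure D1:**
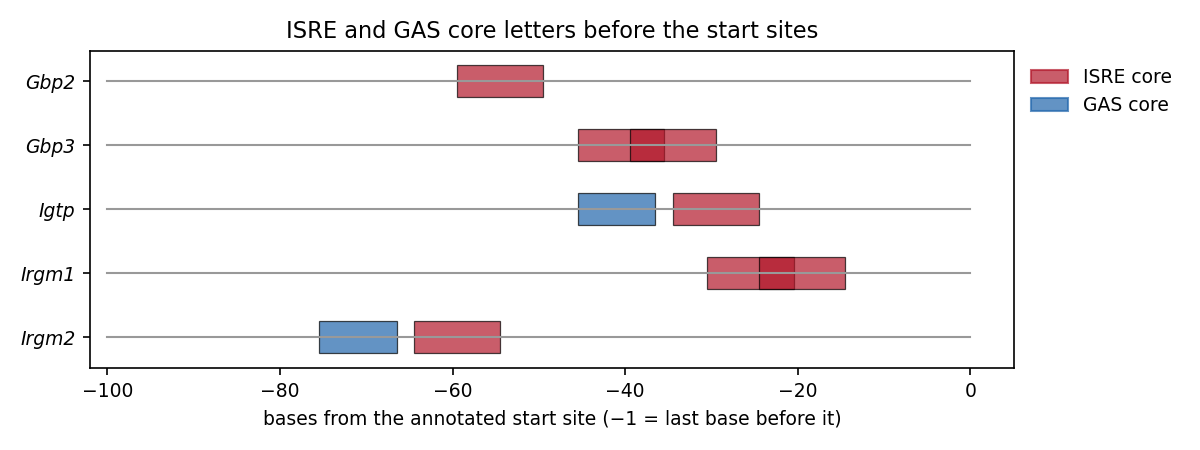
Position of ISRE cores (red) and GAS cores (blue) in the 100 bases before the annotated start of 5 genes. The horizontal axis is in bases from the start, and darker red marks where 2 ISRE cores overlap in Gbp3 and Irgm1. Igtp and Irgm2 show a GAS core directly before an ISRE core.

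Arrays were alike in depth, with median signals of 134.5 to 161.3 intensity units and 50.8% to 54.8% of probes detected. Olig1, Pdgfra and Sox10, progenitor genes that mark proneural glioma, were detected on every array. The probe of the targeted gene Nr2e1 read 5.55 ± 0.54 log2 units in knockout gliomas and 6.14 ± 0.44 in intact gliomas (n = 6 each, SD), or a log2 difference of -0.58 (SE 0.26, limma adjusted p = 0.405). By limma, 2 of 14155 genes (0.0141%) passed an adjusted p of 0.05. Animal labels begin with different digits: 56 for knockout 2, 5 and 6 and for intact 1 and 2, 61 for knockout 1, 3 and 4, 59 for intact 3, and other digits for intact 4 to 6. What these digits stand for is not stated. The deposited table also has an order, with knockout 2 to 6 and intact 3 in its first 6 columns and knockout 1 and the other intact arrays in its last 6. Group differences are therefore also given within label series 56 (3 knockout against 2 intact arrays) and within each set of 6 columns.

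None of the 6 GTPase genes passed the adjusted threshold, where 0.0141% of all genes did (0.00706% higher and 0.00706% lower in knockout gliomas), and 1 of 6 (Gbp3) had an unadjusted p below 0.05, where 11.9% did. On the brightest kept probe of each gene, all 6 differences, log2 knockout minus intact, were above 0, with a median of 0.77. However, Gbp2 read -0.012 with cyclic loess normalization and -0.041 with median scaling. Iigp1 lay near background, on a probe detected on 3 knockout arrays and 1 intact array. Intact arrays alone would not have kept that probe, and the other kept Iigp1 probe lay below 0. With the label series as a block, 3 of 6 lay above 0 and their median was -0.074. Without background correction the median was 0.46. Of all genes, 49.6% lay above 0 and the median was near 0 (-0.003). Igtp, Irgm2 and Gbp3 had the largest differences, at 1.23, 1.10 and 1.07. The differences of Iigp1 (0.47), Irgm1 (0.25) and Gbp2 (0.01) were smaller. A total of 3 of 6 thus differed by at least 1 log2 unit upward, against 1.22% of all genes, but 0 of 6 did so without background correction, in the authors' value table, with the label series as a block or without intact 5. For 0 of the 6 did the groups fail to overlap, where 0.431% of all genes lay without overlap and higher in knockout gliomas. In bulk tissue, fewer or more cells of a type and less or more RNA per cell cannot be told apart.

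**Figure D2:**
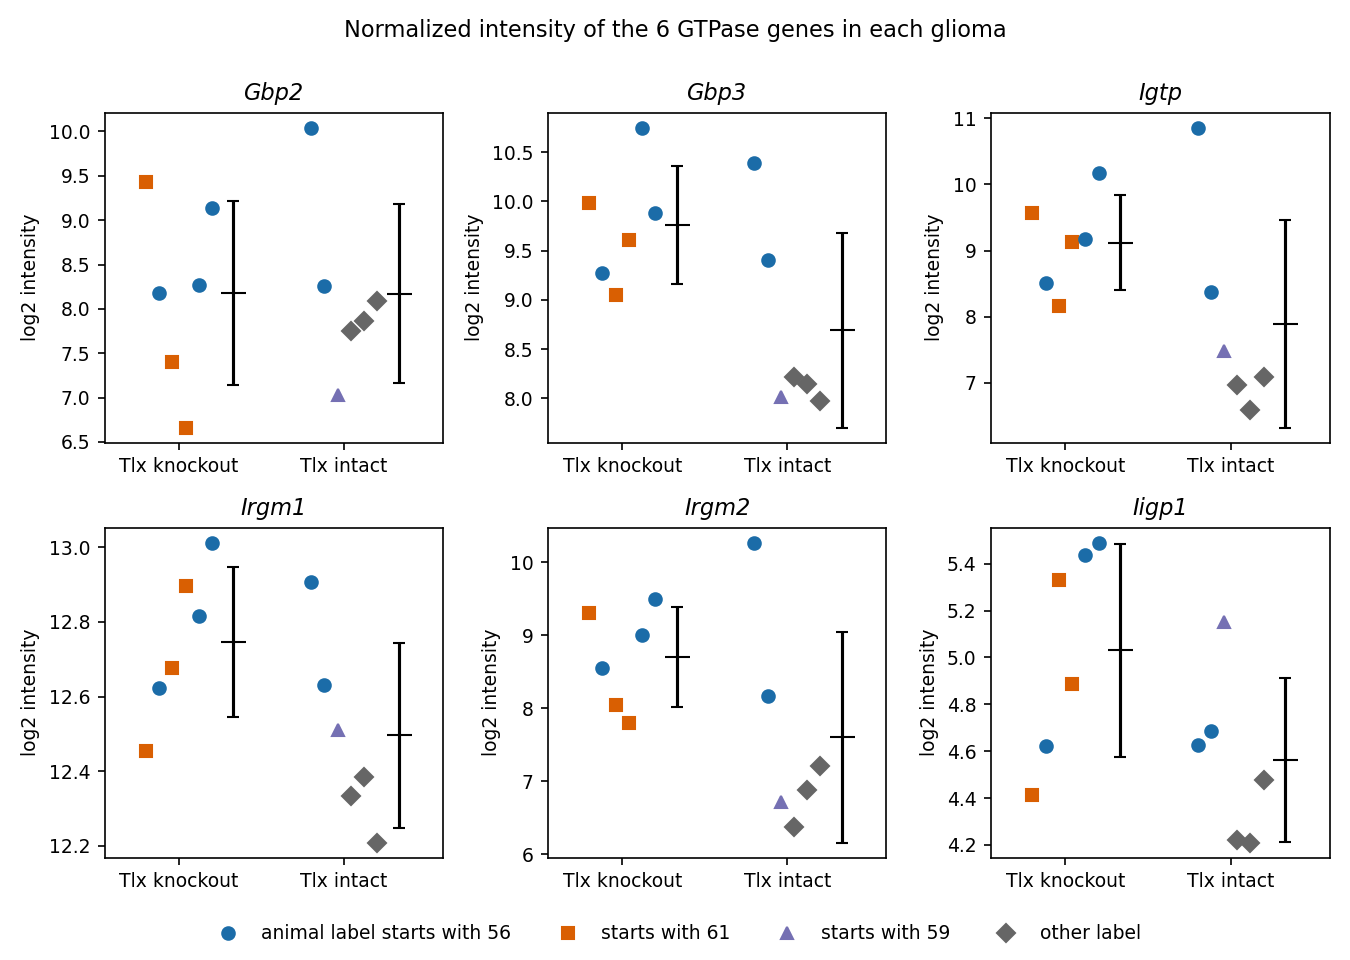
Normalized log2 intensity of the 6 genes in each glioma, Tlx knockout left and Tlx intact right in each panel, with the mean and SD of 6 arrays beside the points. Marker shapes give the leading digits of the animal label. Intact 1 and 2, both of label series 56, are the highest intact arrays for Gbp2, Gbp3, Igtp, Irgm1 and Irgm2, and vertical scales differ between panels.

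Gbp3 encodes a guanylate-binding protein of the interferon-inducible cluster on chromosome 3. Its brightest probe (ILMN_1244513) had a lowest, median and highest value of 9.05, 9.74 and 10.75 log2 units in knockout gliomas, against 7.97, 8.18 and 10.39 in intact gliomas. Intact replicates 3 to 6 lay below every knockout array, whereas intact 1 and 2, at 10.39 and 9.40, lay among them. The means were 9.76 ± 0.60 in knockout and 8.69 ± 0.99 in intact gliomas (n = 6 each, SD), a 2.10-fold ratio with a log2 difference of 1.07 (SE 0.41, limma adjusted p = 0.340). Before normalization the same probe had median signals of 942 intensity units in knockout and 411 in intact gliomas. The second Gbp3 probe (ILMN_2918002) ranged over 8.24 to 9.66 in knockout and 7.28 to 9.53 in intact gliomas and differed by 0.94 (SE 0.36, adjusted p over probes = 0.301). Across the 12 arrays both probes followed each other closely (Pearson r = 0.987). Within label series 56 the Gbp3 difference was 0.07, because the 2 intact arrays of that series averaged 9.90, against 9.97 in its 3 knockout arrays. Within the first 6 columns it was 1.70 and within the last 6 it was 1.16, each with 1 array in 1 of the groups.

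Gbp2, which lies in the same cluster, had nearly equal means in both groups. Its probe ILMN_3122961 had a lowest, median and highest value of 6.66, 8.22 and 9.43 in knockout gliomas, against 7.03, 7.98 and 10.04 in intact gliomas. The groups overlapped almost fully, and intact 1 was the highest array and knockout 4 the lowest. Means were 8.18 ± 1.04 in knockout and 8.17 ± 1.01 in intact gliomas (n = 6 each, SD), or a log2 difference of 0.01 (SE 0.51, limma adjusted p = 0.997). Its values spread over 3.38 log2 units, or 10.4-fold, so the error of the difference is wide. A second Gbp2 probe (ILMN_3047389), detected on 3 knockout and 2 intact arrays, differed by 0.06 (SE 0.33). The third (ILMN_2605602) was detected on 0 knockout arrays and 1 intact array and was not tested. The Gbp2 difference was 0.90 within the first 6 columns, 1.03 within the last 6 and -0.62 within label series 56.

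The difference between the 2 GBP genes was followed within each array, a comparison chosen after their values were seen and therefore described without a test. Gbp3 minus Gbp2 was 0.56 to 2.94 log2 units in knockout gliomas and -0.12 to 1.15 in intact gliomas, with means of 1.58 ± 0.96 and 0.52 ± 0.47 (n = 6 each, SD). In 3 of 6 knockout arrays it lay above every intact array. The group difference of 1.06 was 0.69 within label series 56, 0.80 within the first 6 columns and 0.13 within the last 6. Gbp2b lies between the genes on chromosome 3, and its difference was -0.22 (SE 0.21, limma adjusted p = 0.705).

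Igtp, an IRG regulator of internal membranes also called Irgm3, varied most. Its only probe (ILMN_2593554) had a lowest, median and highest value of 8.17, 9.16 and 10.17 in knockout gliomas, against 6.59, 7.29 and 10.86 in intact gliomas. Intact 1 was the highest of all 12 arrays and intact 5 the lowest, 4.27 log2 units or 19.3-fold apart, and 4 of 6 intact arrays lay below every knockout array. Means were 9.12 ± 0.72 in knockout and 7.89 ± 1.57 in intact gliomas (n = 6 each, SD), a 2.34-fold ratio (log2 1.23, SE 0.61, limma adjusted p = 0.455). Without intact 1 the difference was 1.82 and its adjusted p 0.0444, the only call of a member gene when 1 array was left out. In that fit 104 of all 14155 genes (0.735%) were called. Within label series 56 the difference was -0.33, and it was 1.55 in the first 6 and 1.59 in the last 6 columns.

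Irgm2, the neighbouring regulator on chromosome 11, gave a like picture. Its only probe (ILMN_1259564) had a lowest, median and highest value of 7.81, 8.78 and 9.50 in knockout gliomas, against 6.37, 7.04 and 10.27 in intact gliomas. Again intact 1 was highest, and intact 3 to 6 lay below every knockout array. The means of 8.71 ± 0.69 in knockout and 7.60 ± 1.44 in intact gliomas (n = 6 each, SD) differed by 1.10 (SE 0.56, 2.15-fold, limma adjusted p = 0.465). Within label series 56 the difference was -0.20, against 1.86 in the first 6 and 1.53 in the last 6 columns. Leaving out intact 1 gave 1.64 and an adjusted p of 0.0606 in the test of genes, and 0.0497 in the test of probes, where 0.971% of all probes were called.

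Irgm1, the regulator that acts on mitochondria, phagosomes and autophagy in mouse macrophages, varied least. Its brightest probe (ILMN_2804037) had a lowest, median and highest value of 12.45, 12.75 and 13.01 in knockout gliomas, against 12.21, 12.45 and 12.91 in intact gliomas. The whole range over 12 arrays was 0.81 log2 units, or 1.75-fold. Means of 12.75 ± 0.20 in knockout and 12.50 ± 0.25 in intact gliomas (n = 6 each, SD) differed by 0.25 (SE 0.15, limma adjusted p = 0.533). Knockout 1, the array of highest Gbp2 in its group, was the lowest knockout array for Irgm1. A second probe (ILMN_1234539) had a wider range, 8.46 to 9.63 in knockout and 7.89 to 10.02 in intact gliomas, and differed by 0.52 (SE 0.32). The third (ILMN_2711172), detected on 3 knockout and 2 intact arrays, differed by 0.30 (SE 0.32). Pearson r between the 3 probes was 0.620 to 0.826. The difference of the brightest probe was 0.05 within label series 56, 0.29 within the first 6 columns and -0.04 within the last 6.

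Iigp1, the effector that coats parasite vacuoles in infected mouse cells, lay near background. Its probe ILMN_2612776 was detected on 3 of 6 knockout arrays and 1 of 6 intact arrays. Intact arrays alone would not have kept this probe, and its difference carries that limit. Values had a lowest, median and highest of 4.41, 5.11 and 5.49 in knockout gliomas, against 4.21, 4.55 and 5.15 in intact gliomas. In 3 knockout arrays the value lay above every intact array. Means of 5.03 ± 0.45 in knockout and 4.56 ± 0.35 in intact gliomas (n = 6 each, SD) differed by 0.47 (SE 0.22, limma adjusted p = 0.433). A second probe (ILMN_2585597) was detected on 0 knockout and 3 intact arrays. It passed the detection filter through the intact arrays alone, so its difference of -0.44 (SE 0.16) carries that limit. These probes did not follow each other (r = -0.018 over 12 arrays), and the remaining probes, ILMN_1229996 and ILMN_1247924, were detected on 0 arrays. The difference of the first probe was 0.53 within label series 56, 0.004 in the first 6 columns and -0.03 in the last 6.

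At probe level, 0 of 11 tested member probes passed the adjusted threshold, where 0.0107% of 28002 probes did.

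The genes did not vary as 1 unit. Over the 12 arrays Pearson r between genes had a median of 0.679 for the 15 pairs and ran from -0.118 (Gbp2 with Iigp1) to 0.941 (Igtp with Irgm2). Gbp3 followed Igtp and Irgm2 with r of 0.895 each, and Gbp2 followed Irgm2 more closely (0.782) than it followed Gbp3 (0.556). Irgm1 had r of 0.227 with Gbp2 and 0.679 with Iigp1. The Iigp1 probe used was detected on 4 of 12 arrays, so its correlations lie near background. Within the groups the median over pairs was 0.408 in knockout and 0.870 in intact gliomas. Intact 1 and 2 were the highest intact arrays for every member except Iigp1. These correlations describe 12 arrays that share a group difference and a spread in immune genes, and no p is given.

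Averaged over the 6 genes, the deviation from each gene's mean over 12 arrays placed arrays rather than groups in order. The averages in knockout gliomas were 0.61, 0.05, -0.13, -0.08, 0.66 and 0.95 for replicates 1 to 6. In intact gliomas they were 1.27, 0.006, -0.76, -0.94, -0.90 and -0.74 for replicates 1 to 6. Intact 1 was thus the highest array of the series, intact 2 lay within the knockout range, and intact 3 to 6 lay below every knockout array. In intact 4 to 6, 0 of 6 genes lay above their own mean, against 6 of 6 in knockout 5 and 6. The group means were 0.34 ± 0.46 in knockout and -0.34 ± 0.86 in intact gliomas (n = 6 each, SD).

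**Figure D3:**
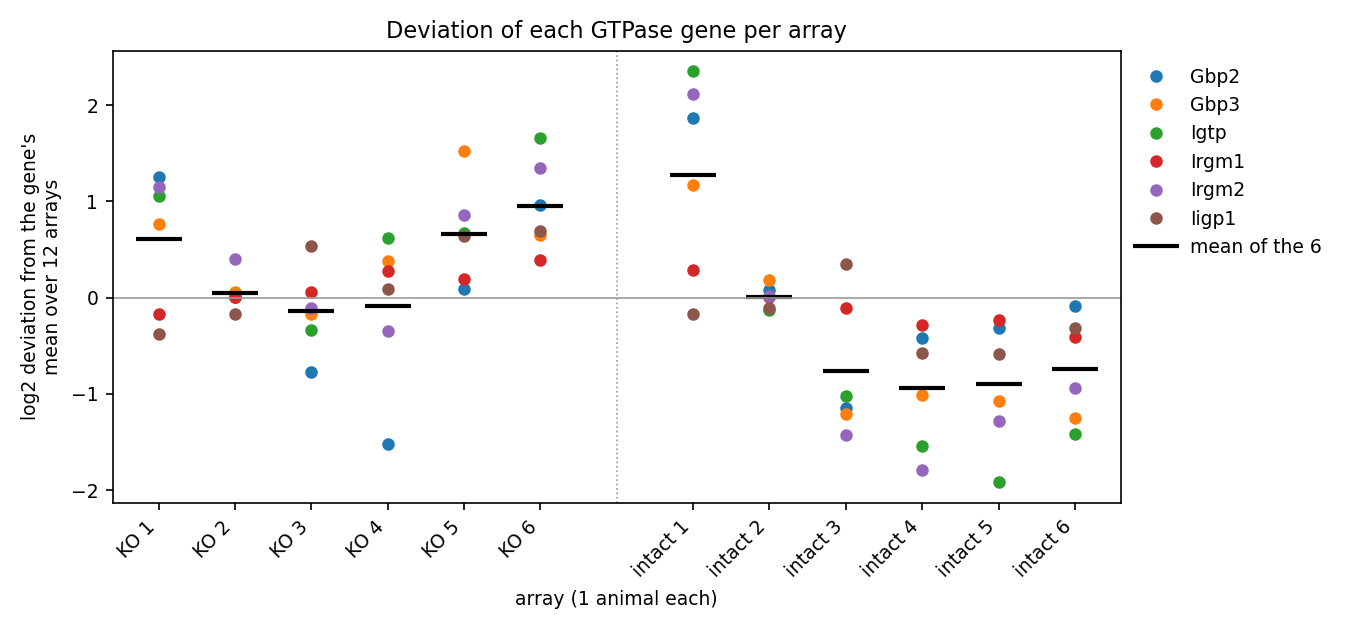
Log2 deviation of each GTPase gene from its own mean over 12 arrays, by array, knockout (KO) left and intact right, with black bars for the mean of the 6 genes. Intact 1 has the highest bar (1.27) and intact 3 to 6 the 4 lowest (-0.94 to -0.74), while Gbp2 lies at the bottom of knockout 3 and 4.

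The differences of Igtp, Irgm2 and Gbp3 were near 0 or below 0 within label series 56. For Igtp the means were 9.29 in knockout arrays of series 56 and 8.95 in those of series 61, against 9.62 in intact arrays of series 56 and 7.03 in the other intact arrays. For Irgm2 these means were 9.02 and 8.39 in knockout arrays, against 9.22 and 6.79 in intact arrays. With label series as a block, the differences were 0.07 for Gbp3 (SE 0.43), -0.33 for Igtp (SE 0.67) and -0.20 for Irgm2 (SE 0.59), each with a limma adjusted p of 0.999. That fit compares groups within series 56 alone, since no other series holds both. Of its 2 intact arrays, intact 1 read 10.86 for Igtp and 10.27 for Irgm2, above every knockout array of the series. Intact 2 read 8.38 and 8.17, below every knockout array of the series, so the negative signs for these 2 genes rest on intact 1. With the 2 column sets as a block, the same genes differed by 1.43 (SE 0.55), 1.57 (SE 0.83) and 1.70 (SE 0.74). With age as a covariate they differed by 0.67 (SE 0.65), 1.49 (SE 0.98) and 1.38 (SE 0.91).

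**Figure D4:**
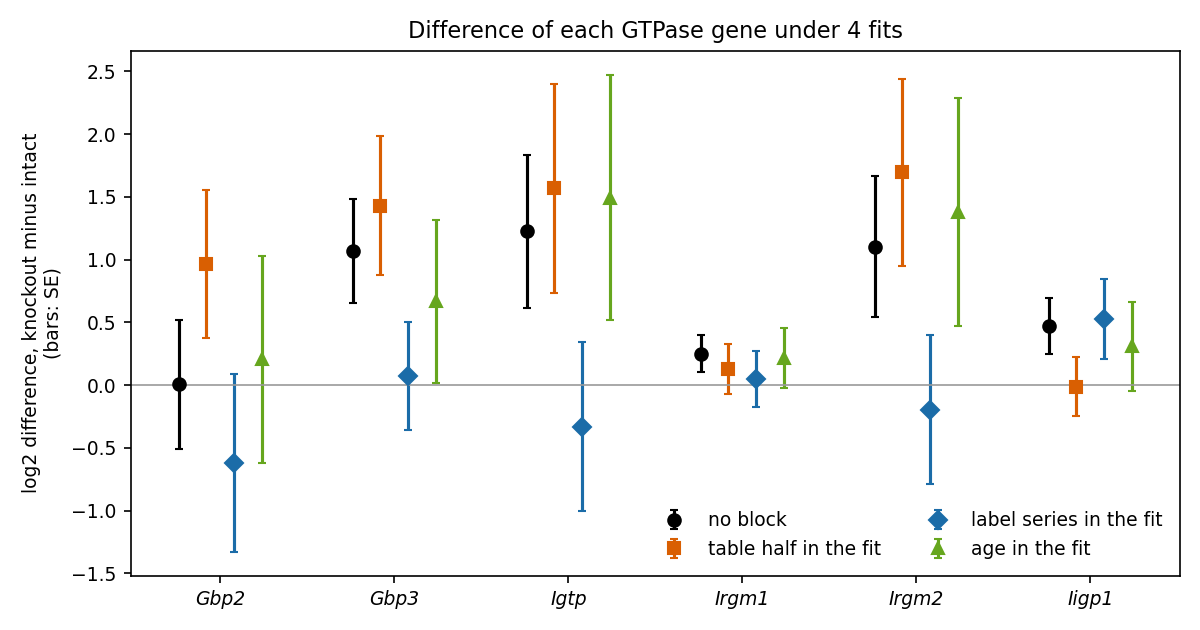
Log2 difference, knockout minus intact, of the 6 genes (points) with its SE (bars) under 4 limma fits: without a block, with the 2 column sets of the deposited table, with the label series and with age. Igtp and Irgm2 lie above 0 in 3 of the fits and below 0 with the label series (-0.33 and -0.20), and Gbp3 is near 0 there (0.07).

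Other members of both families were taken from a list of 9 GBP and 13 IRG or related genes. Of the other GBPs, 5 were tested, 2 had a difference above 0, 0 passed the adjusted threshold, and the median was -0.14. They were Gbp7 at 0.23 (another probe at 0.38), Gbp10 at 0.16, Gbp4 at -0.14 (detected on 0 knockout and 3 intact arrays, so kept through the intact arrays alone), Gbp2b at -0.22 and Gbp9 at -0.40 (SE 0.16, limma adjusted p = 0.366). Gbp9 was detected on 2 knockout and 5 intact arrays, so knockout arrays alone would not have kept it. Gbp5, Gbp6, Gbp8 and Gbp11 were below the detection filter.

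Of the other IRG and related genes, 8 were tested, 7 had a difference above 0, 0 passed the adjusted threshold, and the median was 0.57. Gm4951, a predicted IRG gene on chromosome 18, read 7.42 ± 0.84 in knockout and 5.22 ± 1.32 in intact gliomas (n = 6 each, SD), or a log2 difference of 2.20 (SE 0.55, limma adjusted p = 0.208). It was detected on 6 knockout and 3 intact arrays, and its other probe was not detected. Within label series 56 Gm4951 differed by 0.94. Ifi47 (Irgd) averaged 7.30 ± 0.69 in knockout and 6.22 ± 1.20 in intact gliomas (n = 6 each, SD), or a log2 difference of 1.08 (SE 0.49, adjusted p = 0.412), and by 0.08 within label series 56. Gvin1, a very large interferon-inducible GTPase, differed by 0.998 on its brightest probe and by -0.16 on another. The remaining differences were 0.72 for Gm12250 (Irgb10), next to Igtp, 0.43 for Tgtp1 (Irgb6), 0.32 for Gm12185, 0.30 for Irgc1 and -0.21 for Irgq (other probes at 0.37 and -0.08). Gm12250 was detected on 4 knockout arrays and 1 intact array, and Tgtp1 and Irgc1 each on 3 and 1. Intact arrays alone would not have kept these genes, and their place among the 7 above 0 carries that limit. Neither Irgc1 nor Irgq is known as interferon-inducible. With label series as a block, an alternative chosen after seeing the data, the median of these 8 genes was 0.12 (6 of 8 above 0), and without any 1 array it stayed between 0.43 and 0.79. Of the 13 listed IRG and related genes, tested or not, 8 had a promoter sequence, and 5 of those held an ISRE core. All 3 of the 9 listed other GBPs that had a promoter sequence held an ISRE core too.

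**Figure D5:**
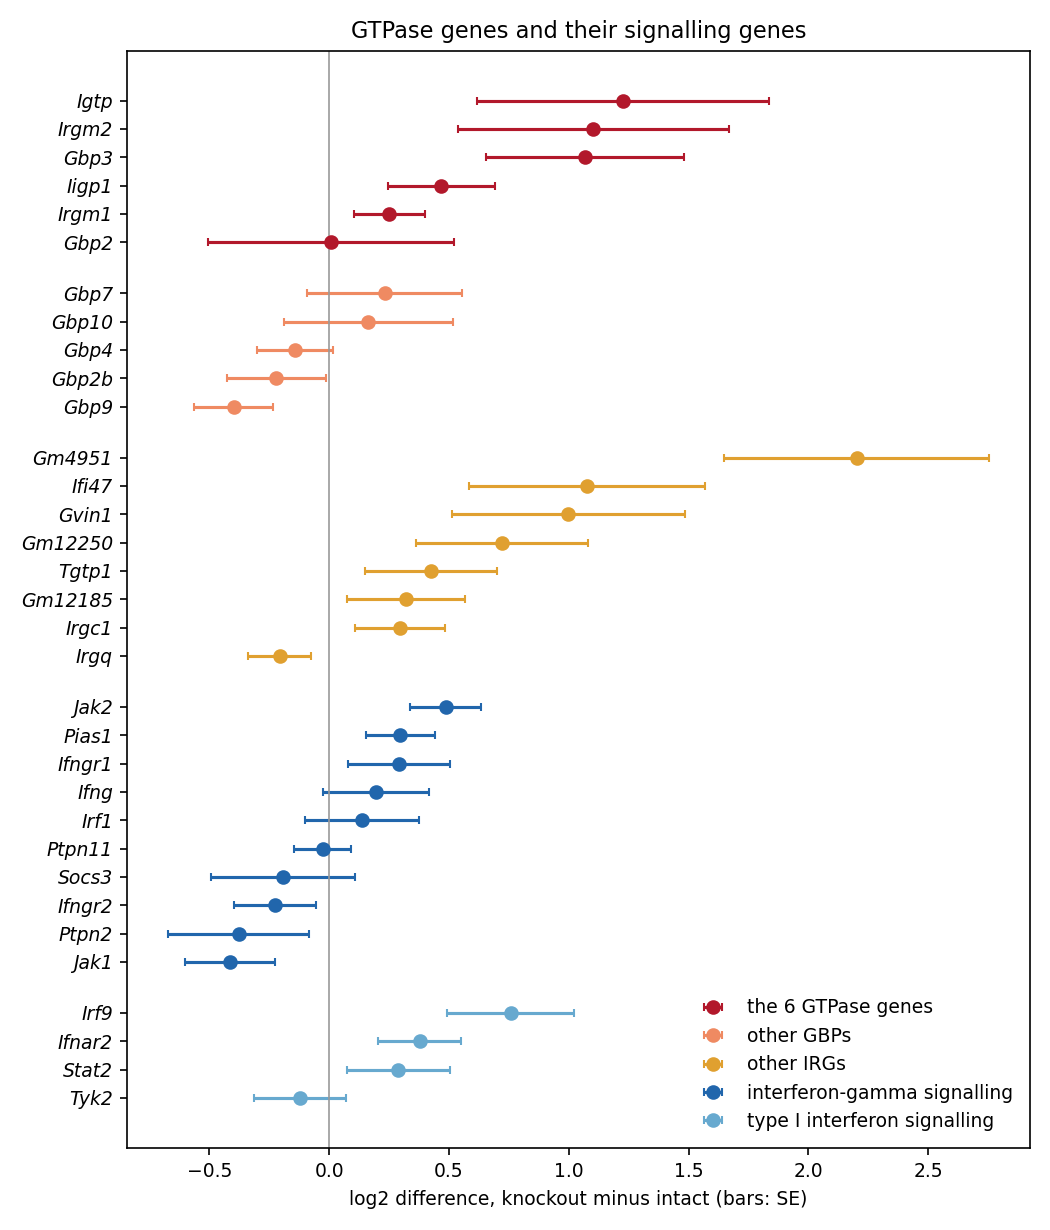
Log2 difference, knockout minus intact, with SE, of the 6 GTPase genes, the other measured GBP and IRG genes, and genes of interferon-gamma and type I interferon signalling. No gene shown passed the adjusted threshold. The IRG genes lie mostly right of 0, from 2.20 for Gm4951 to -0.21 for Irgq, while the signalling genes lie on both sides. Of the IRG genes right of 0, Gm12250, Tgtp1, Irgc1 and Iigp1 were each detected on 1 intact array.

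Genes of the interferon-gamma pathway upstream of the GTPases showed no common direction. Of 12 listed, 10 were tested, 5 lay above 0, 0 passed the adjusted threshold, and the median was 0.06. The ligand gene Ifng was detected on 2 arrays of each group and differed by 0.19 (SE 0.22). Its receptor chains differed by 0.29 (Ifngr1) and by -0.23 (Ifngr2, with other probes at 0.35 and 0.57). The kinase gene Jak2 averaged 10.07 ± 0.13 in knockout and 9.58 ± 0.29 in intact gliomas (n = 6 each, SD), or a log2 difference of 0.49 (SE 0.15, limma adjusted p = 0.234), with another probe at 0.06. Jak1 differed by -0.41 and its other probe by 0.16. Irf1, a transcription factor that interferon-gamma induces, differed by 0.14 (SE 0.24), with other probes at 0.50, 0.15 and -0.18. The inhibitors differed by -0.19 (Socs3), -0.38 (Ptpn2), -0.03 (Ptpn11) and 0.30 (Pias1). Socs1 was below the filter.

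Type I interferon signalling, which uses the same ISREs, had 4 tested genes of 6, with 3 above 0, 0 past the adjusted threshold and a median of 0.33. Irf9, the DNA-binding partner of Stat2, averaged 8.98 ± 0.42 in knockout and 8.22 ± 0.56 in intact gliomas (n = 6 each, SD), or a log2 difference of 0.76 (SE 0.26, limma adjusted p = 0.288), and its other probe differed by 0.36. Ifnar2 differed by 0.38, Stat2 by 0.29 and Tyk2 by -0.12. Ifnb1 and Ifnar1 were below the filter.

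Further interferon targets had larger differences, again without a call. In the antiviral list, 14 of 15 tested genes lay above 0 and the median was 0.57, or 0.31 without background correction and 0.38 with label series as a block, among them Ifit3 at 1.79, Isg15 at 1.52, Irf7 at 1.08 and the RNA sensor Ddx58 at 0.67. Ddx58 was a gene whose groups did not overlap (limma adjusted p = 0.234), where 0.431% of all genes lay without overlap and higher in knockout gliomas. Another Ddx58 probe, detected on 3 arrays of each group, differed by -0.06. Irf7 was detected on 6 knockout and 2 intact arrays, so intact arrays alone would not have kept it, and its difference carries that limit. Of the other listed interferon-gamma targets, 12 of 16 lay above 0 with a median of 0.35, including Psmb8 at 0.79, Irf8 at 0.68 and Tap1 at 0.45, whereas Ido1 lay at -0.54. Within label series 56, only 5 of these 16 genes lay above 0 and their median was -0.30. Ciita and Nlrc5, both above 0 over all arrays, were each detected on 4 knockout and 2 intact arrays and carry the same limit as Irf7. MHC class II genes all lay above 0 (6 of 6), with a median of 2.04 that became 0.22 with label series as a block. Of these, H2-Aa was detected on 6 knockout and 2 intact arrays and carries that limit too.

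The genes most alike the GTPase genes were found by Pearson correlation with the mean deviation of the 6 genes over the 12 arrays. The 8 nearest were Parp14 (r = 0.935), Cd52 (0.934), Dtx3l (0.934), Oas1g (0.933), H2-Eb1 (0.932), Cxcl16 (0.931), Cd74 (0.929) and H2-T23 (0.926). Parp14 and Dtx3l are involved in protein ADP-ribosylation and ubiquitination, Oas1g belongs to the antiviral oligoadenylate synthetases, and H2-Eb1, Cd74 and H2-T23 belong to antigen presentation. Their differences ran from 0.57 (Dtx3l) to 3.15 (H2-Eb1), with limma adjusted p of 0.212 to 0.620. In all, 24 other genes had r over 0.9 and 175 over 0.8, of 14155.

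Markers of immune cells moved with part of this pattern. Of 15 listed microglia and macrophage markers, 14 were tested and 12 lay above 0, with a median of 0.22 and 0 past the adjusted threshold. Their summed level, given as the mean log2 over the list, was 8.31 to 9.89 per array in knockout and 8.27 to 9.995 in intact gliomas. In intact gliomas it averaged 9.62 in label series 56 and 8.39 in the other arrays. MHC class II genes showed the same order in intact gliomas, at 9.17 in series 56 and 6.68 in the others. Single markers differed in both directions, with Itgam at -0.61 and P2ry12, a receptor of homeostatic microglia, at -2.13 (-1.94 within label series 56). Fcer1g differed by 4.10, but by -0.07 within label series 56, since intact 3 to 6 read 4.22 to 6.20. Ptprc was detected on 4 knockout and 0 intact arrays and so was kept through the knockout arrays alone. The microglial markers Csf1r, Cx3cr1 and Tmem119 differed by 0.02, 0.13 and 0.14. In the same list Ly86, C1qb, C1qc and Aif1 differed by 1.03, 0.91, 0.54 and 0.52. Within label series 56 the latter differed by 0.11, 0.22, 0.06 and -0.06. The part of these markers in the differences of the GTPase genes was not tested.

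Markers of other brain cells had lower mean levels in knockout gliomas, again with 0 past the adjusted threshold. Neuronal markers had a median of -1.30 with 1 of 6 above 0, astrocyte markers -0.69 with 1 of 8 above 0, and oligodendrocyte markers -0.64 with 0 of 5 above 0. The mean over the list was 9.001 in knockout and 10.04 in intact gliomas for neurons, 10.32 and 10.84 for astrocytes, and 11.004 and 11.63 for oligodendrocytes. Within label series 56 the medians were -1.53, -0.31 and -0.40. Progenitor and proneural glioma markers had a median of 0.20, with 6 of 7 above 0, and endothelial markers 0.25, with 5 of 9 above 0. The part of these shifts in the differences of the GTPase genes was not tested.

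T and NK cells are the usual sources of interferon-gamma. Of 18 listed markers, 9 were tested, 3 lay above 0, 0 passed the adjusted threshold, and the median was -0.14. The mean over the list ranged from 5.74 to 6.39 in knockout and from 5.93 to 6.92 in intact gliomas. In intact gliomas it averaged 6.61 in label series 56 and 6.04 in the other arrays. After the group means were removed, it followed the mean of the GTPase genes over the 12 arrays with r of 0.944, against 0.942 for MHC class II and 0.885 for microglia and macrophages. With the group means kept, r was 0.688, against 0.940 and 0.887. Intact 1 had both the highest mean over the T and NK list (6.92) and the highest mean deviation of the GTPase genes (1.27). These r without intact 1 were not computed. Single tested markers, group means removed, ran from -0.07 (Prf1) to 0.82 (Cd3g). Cd3g was detected on 1 knockout and 3 intact arrays, and Nkg7 on 2 and 4. Cd3d, Cd4, Cd8a, Gzmb, Klrb1c, Ncr1 and Il2rb were below the filter, and Cd3e was detected on 6 knockout and 5 intact arrays with a difference of -0.14. Their part in the result was not tested.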

How the data were processed

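RNA of 12 mouse gliomas was hybridised to Illumina bead arrays, 1 per animal. Per the file headers, the authors deposited a table of 45135 probes with, for every array, an intensity that is not normalized and a detection p-value. A value table of intensities for 45134 probes, whose normalization by the authors is unstated, served as an alternative. Aligned coordinates and a genome build of the array were not used. Signals were processed in R 4.3.3 by the neqc function of limma 3.58.1 (background model from the detection p-values, offset 16, quantile normalization, log2). Probes with detection p below 0.05 on at least 3 arrays were kept. Names came from the platform annotation, where 34772 probes had 1 symbol, 18 several and 10345 none, with symbols updated for 34694 by Entrez identifier. A gene with several kept probes was represented by the brightest, which concerned 5779 genes. Groups were taken from the labels and compared by two-sided limma tests (lmFit, eBayes), and p-values were adjusted by Benjamini-Hochberg across the 14155 genes or, for single probes, the 28002 probes. A probe kept through the arrays of 1 group alone is given without its difference, or with that limit beside it. Fitting was checked on simulated data with independent noise for each gene, so the check does not cover label series or age. Of 100 genes shifted by 1 log2 unit 72 were recovered, and of 100 shifted by 2 units 96, with 18 false calls. The shifted genes were drawn at random from all tested genes, so these shares do not describe the 6 members. The number of arrays limits the precision. Replicate numbers follow deposition order and pair no animals. RefSeq promoters (GRCm38.p6) were searched for the spelled motifs. No protein sequences were used here. The members, gene lists and motif search were chosen with earlier results of these data known. Named genes were the 6 members, Nr2e1, all measured genes of the other GBP and IRG and both signalling lists, up to 4 genes of smallest p in each further list, and the 8 most alike genes. Csf1r, Cx3cr1, Tmem119, Ly86, C1qb, C1qc, Aif1, Cd3e, Ciita, Nlrc5 and the genes given as markers of glioma were named after their values were seen. Alternatives covered background, normalization, filter, probe choice, array weights, age, label series, column order and leaving out each array.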

Additional observations from a re-analysis of the deposited data

How the results depend on the processing

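No paired analysis was possible because the labels give no replicate numbers shared between groups. Under 11 other settings no member gene tested was called (6 tested, or 5 where detection on 6 arrays was required), and under the 8 of them run on probes 0 of 11 member probes were. The count of all genes called, 2 in the fit as reported, lay between 1 and 3. It was 1 without background correction, with median scaling, with the authors' value table, when probes of a gene were averaged, with array weights, with age, with the column sets and with the label series. Leaving out 1 array gave 1 to 104 calls, 104 of them without intact 1 and 5 each without knockout 1 or intact 2. The member genes called were then 0 to 1 (Igtp) and the member probes called 0 to 2 (Igtp and Irgm2), each called only without intact 1. The median difference of the 6 genes was 0.77 as reported, -0.074 with the label series, 0.46 without background correction and with the authors' value table, 0.49 with age, up to 1.20 elsewhere, and 0.63 to 0.94 when 1 array was left out. Gbp2 turned to -0.012 with cyclic loess, -0.041 with median scaling and -0.62 with the label series. Leaving out 1 array gave -0.24 to 0.38 for Gbp2 and -0.12 to 0.26 for its probe ILMN_3047389, which read -0.010 with array weights and -0.73 with the label series. The label series also turned Igtp to -0.33, Irgm2 to -0.20, and the Irgm1 probes ILMN_1234539 to -0.22 and ILMN_2711172 to -0.18. The last read -0.42 with age, and Iigp1 read -0.013 with the column sets. Averaging probes gave 0.01 for Iigp1. Under 4 other scalings, chosen for the lists after seeing the data, 7 of 8 other IRG genes and 2 of 5 other GBPs lay above 0 each time, with medians of 0.19 to 0.56 and -0.15 to -0.03. The cause was not tested. All 4 Iigp1 probes and 3 other member probes were detected on fewer than 6 of 12 arrays, which limits their differences.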

Other observations

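Genes that act with the GTPases were also measured. Of 10 listed genes of ATG8 conjugation, the autophagy machinery that guides IRGs and GBPs to vacuoles in mouse cells, 4 lay above 0 and the median difference, knockout minus intact, was -0.05. Atg3 stood apart at 2.55 on its brightest probe (limma adjusted p = 0.208), and another Atg3 probe differed by 0.12. Within label series 56 the brightest Atg3 probe differed by 0.20, since intact 3 to 6 read 4.44 to 5.67. Map1lc3b differed by -0.28, Gabarapl2 by -0.43 and Atg16l1 by 0.16. Prenylation enzymes, which attach the lipid anchor of some GBPs, had 2 of 5 genes above 0 with a median of -0.20, with Icmt at 0.19 and Fnta, Fntb and Rce1 between -0.26 and -0.20. Among inflammasome genes, which act downstream of GBPs in infected cells, 5 of 7 tested lay above 0 with a median of 0.42. Within label series 56, 4 of these 7 lay above 0 and the median was 0.002. Casp4 (caspase-11) averaged 7.56 ± 0.38 in knockout and 6.52 ± 0.61 in intact gliomas (n = 6 each, SD), or a log2 difference of 1.04 (SE 0.27, limma adjusted p = 0.212), with other probes at 1.01 and 0.16, and it differed by 0.35 within label series 56. Il1b differed by 1.05, Gsdmd by 0.61 (other probes at 0.37 and 0.09) and Aim2 by -0.45 (another probe at 0.11). None of these genes passed the adjusted threshold.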
